A study of Mus musculus with 20 samples.

Results

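A group of 209 protein-coding genes, of the 54532 genes counted, was near the counting floor in normal liver and abundant in high tumor-sized colorectal liver metastases (CRLM). The members were chosen from measured values. Each had at most 10 counts in both normal liver libraries (con), a mean of at least 10 CPM (counts per 1000000 counts of the library) in Ht_1 and Ht_2, and a mean over 6 libraries of magnetically selected myeloid cells of at most 12.5% of that Ht mean. Of 22046 protein-coding genes, 10049 reached 10 CPM in Ht, 429 of these also met the limit in con, and 222 also met the limit in the selected cells. The genes Stra6, Flnc, Grem1 and Lgals7, 1 collagen gene and 8 genes of chromosome X were set aside, which left 209. The levels in con, in Ht and of the selected cells against Ht therefore describe the choice, and are given without a test.

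The livers came from wild-type C57BL/6 mice, whose labels state male for the tissue series and give no sex for the selected cells, while the Methods state female. Normal liver (con) was taken at day 0 after normal saline and had 2 libraries. All other animals received an injection of 1000000 Mc38 cells (a mouse line derived from a C57BL/6 colon adenocarcinoma) into the spleen, from which the portal blood carries cells to the liver. Tumor-free liver remote from metastases at 12 days post-injection (dpi), named L-con, had 1 library. Low tumor content (Lt, 9 dpi) and the 3 groups of medium content (Mt3 at 9 dpi, Mt2 and Mt1 at 11 dpi) were covered by 2 libraries per group, and high content (Ht, 12 dpi) by 3. Ht_1 and Ht_3 were made identical according to the Methods and count as 1 sample, although the counts set Ht_3 closer to Ht_2. Over genes with at least 100 counts in each Ht library, the SD of the log2 ratio was 0.31 between Ht_1 and Ht_3 and 0.23 between Ht_2 and Ht_3. Microbeads against F4/80, found on macrophages, or against the myeloid integrin subunit CD11b were used to select cells from Mt2 at 11 dpi, with 3 libraries each. The Methods call the duplicates biological, yet no label ties a library to a mouse, so p-values measure the spread between these samples. The tumor line is 1 cultured line growing in hosts that keep their own liver, stroma and immune cells.

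Tissue libraries held 16032085 to 18246623 counts and libraries of selected cells 17785496 to 20548370, so that 3 counts corresponded to 0.146 to 0.187 CPM. Intervals and floors cover counting error only. The hepatocyte genes fixed for this work (13 genes such as Alb and Apoa1) summed to 134251 and 150806 CPM in con and to 5489 to 8683 CPM in Ht. The 13 macrophage genes summed to 15281 to 19595 CPM in the selected cells, against 445 and 624 CPM in con. CD11b+_3 stood apart from the other selected libraries, with 4493 CPM over 9 neutrophil genes against 179 to 1801 CPM in the other 5.

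HOX and other homeobox proteins bind DNA and give cells a position along the body axes and the limbs. WNT and hedgehog signals are short-range cues read by Frizzled receptors and by the GLI factors, and WNT signaling is the pathway most often altered in colorectal cancer. Versican, lysyl oxidase and fibrillin shape the extracellular matrix, the protein mesh that fibroblasts lay down and that tumor cells can also make. Serine synthesis, which starts with phosphoglycerate dehydrogenase, feeds nucleotide and glutathione production in dividing cells.

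Among the 209 members, 47 were transcription regulators (22.5%), comprising 10 HOX genes, 10 other homeobox genes and 27 further regulators. Another 13 were WNT or hedgehog pathway genes, 23 other growth factors, ligands or receptors, 22 matrix or secreted proteins, 9 cell adhesion or axon guidance genes, 27 genes of excitable cells and the cytoskeleton and 17 metabolic enzymes, and 51 were placed in no group. Their Ht level ran from 10.1 to 916 CPM with a median of 25.5 CPM. Most were modest, 158 under 50 CPM and 16 at 100 CPM or more, and the 10 highest held 27.3% of the summed level. At the edges of the rule, Add2 (10.1 CPM in Ht) was just inside and the hyaluronan synthase Has2 (9.94 CPM) just outside, Tnfrsf10b (12.1% of Ht in the selected cells) inside and Fgf11 (12.96%) outside, and Cd248 (10 and 10 counts in con) inside and Setbp1 (11 and 1 counts) outside.

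The word absent would overstate how low the members were in normal liver and in the myeloid cells selected from Mt2 metastases. They summed to 535 counts in con_1 and 465 in con_2 (32.5 and 27.3 CPM), with 57 members at 0 in both. In the selected cells they summed to 548, 666 and 758 CPM in F4/80+ and 648, 519 and 279 CPM in CD11b+, and 132 to 196 members per library exceeded 10 counts there. They are therefore called tumor-high genes here. In bulk tissue, fewer cells of a type and less RNA per cell cannot be told apart.

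The tumor-high genes were measured in every tumor-bearing group, including those that the choice did not use. Their summed level was 747 and 1995 CPM for Lt, 1343 and 1724 CPM for Mt3, 2441 and 6595 CPM for Mt2, and 3359 and 6731 CPM for Mt1, against 9232 and 9090 CPM in Ht_1 and Ht_2. Both Lt libraries lay above both con libraries for 209 of 209 members, which the limit in con favors, against 56.7% of the 10049 protein-coding genes of at least 10 CPM in Ht. Relative to the Ht mean, the median member stood at 8.16% and 22% for Lt, 14.5% and 18.6% for Mt3, 26.8% and 71.3% for Mt2, and 37.3% and 72.6% for Mt1. Both Mt3 values fell between those of Lt, and Mt2_1 and Mt1_1 were closer to Lt_2 than to their own second library.

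**Figure D1:**
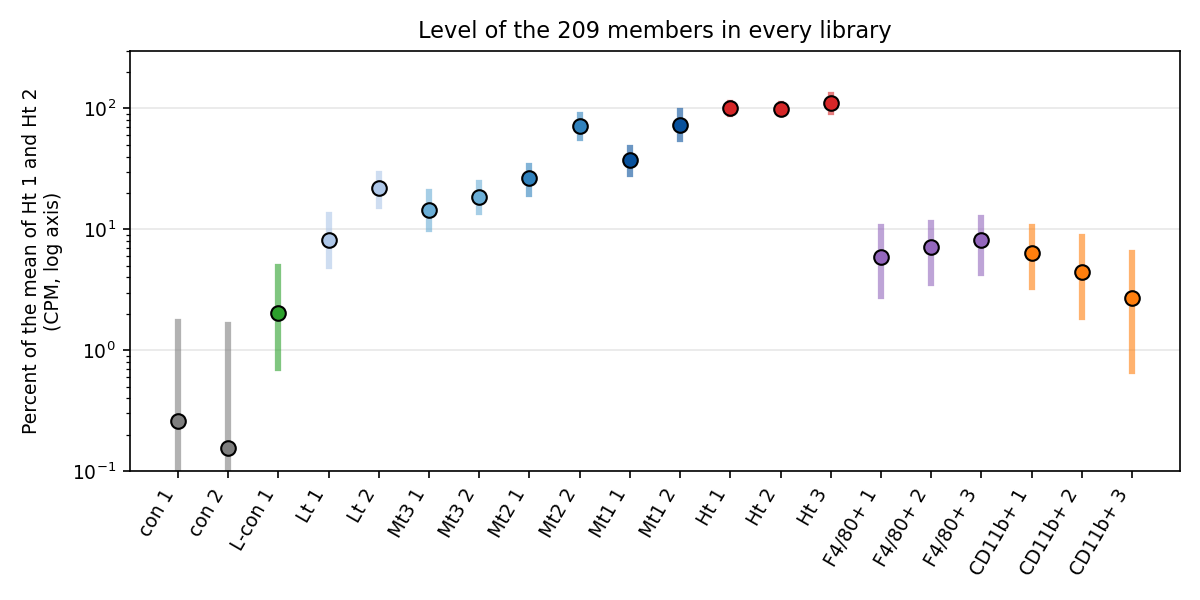
Level of the 209 tumor-high genes in each of the 20 libraries, as a percentage of each gene's mean CPM in Ht_1 and Ht_2 (log axis). Points are the median member and bars run from the 10th to the 90th percentile of members (in both con libraries the bar reaches 0 and leaves the axis). The median is 0.259% and 0.155% in con, reaches 72.6% in Mt1_2, and lies between 2.70% and 8.09% in the selected cells.

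Within Lt, Mt3, Mt2 and Mt1 the library with less hepatocyte RNA had the higher member level. The hepatocyte genes summed to 143646 and 99143 CPM for Lt, 125381 and 105027 CPM for Mt3, 108114 and 41394 CPM for Mt2, and 110860 and 39615 CPM for Mt1. In all 4 groups this library was replicate 2. Between groups the order did not always hold, since Mt1_1 exceeded Mt2_1, Mt3_2 and Lt_2 both in hepatocyte genes and in members. Replicate 2 exceeded replicate 1 in all 4 groups for 172 members, against 53.6% of the protein-coding genes of at least 10 CPM in Ht. The 13 fibroblast genes, of which Fap is itself a member, were likewise higher with tumor content, from 1247 and 2918 CPM in Lt to 9715 to 12648 CPM in Ht. The macrophage genes, with 1076 and 1698 CPM in Lt, 1091 to 2783 CPM in Mt and 3221 to 4021 CPM in Ht, and the 8 T and NK cell genes, with 8.80 and 43.3 CPM in Lt and 48.6 to 69.1 CPM in Ht, were also higher there, and both lists were higher in replicate 2 than in replicate 1 of all 4 groups. The 12 epithelial genes differed from this, with 611 and 420 CPM in Lt, 388 to 1066 CPM in Mt and 132 to 339 CPM in Ht. Keratin genes Krt8 and Krt18, which con also held at 98.1 to 212 CPM, took most of this sum in con, Lt, Mt and Ht. In Ht, Krt8 had 74.2 to 211 CPM and Krt18 42.3 to 108 CPM. The intestinal factor Cdx2 had 0 counts in every Ht library. The part of liver content, stroma, immune cells and tumor cells in the member level was not tested.

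**Figure D2:**
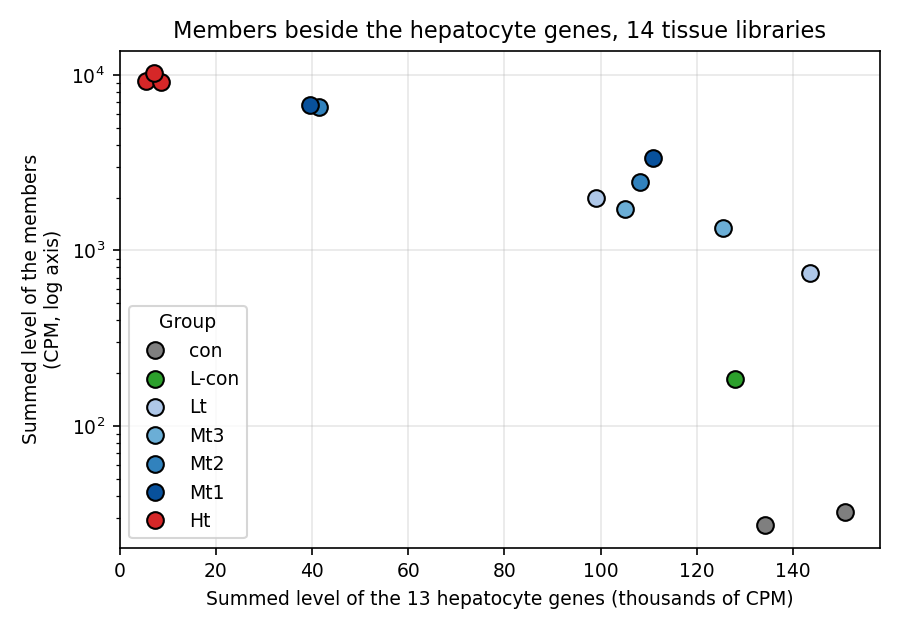
Summed CPM of the 209 tumor-high genes (log axis) against the summed CPM of 13 hepatocyte genes in the 14 tissue libraries, colored by group. Mt2_2 and Mt1_2, with 41394 and 39615 CPM of hepatocyte genes, hold 6595 and 6731 CPM of members, and the other 4 Mt libraries hold 1343 to 3359 CPM.

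From Lt to Mt (the average of the 3 Mt groups), the tumor-high genes tended higher without any reaching the threshold. By edgeR's quasi-likelihood test over the 8 Lt and Mt libraries, with Benjamini-Hochberg adjustment over 15858 genes, 0 of 209 members were called in either direction (background 0% higher and 0% lower), where a call needed an adjusted p no greater than 0.05 with a log2 fold change of 1 or more in size. The median log2 fold change of the members was 0.92, against -0.01 over all genes tested, and 208 members were positive. At an unadjusted p under 0.05 there were 76 members, 36.4% of those tested against 13.7% of all genes, but 7 without Lt_1 (3.35%, against 1.82%), 153 without Lt_2 (73.2%, against 15.0%), and from 40 without Mt1_2 (19.1%, against 7.13%) to 135 without Mt2_1 (64.6%, against 27.5%). DESeq2 called 3 members higher (background 0.0401% higher and 0.224% lower), the nucleotidyltransferase-like gene Tent5b, the WNT regulator Dact3 and Nol4, which are named because of these values. Without the filter on low counts, edgeR called 75 members higher (background 1.01% higher and 1.75% lower). The median rested on the Lt pair, at 0.49 without Lt_1 and 1.58 without Lt_2. On CPM, 7 members had every Mt library above both Lt libraries (3.35%, background 6.42%), and 0 had every Mt library below both (background 2.6%).

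From Mt3 at 9 dpi to Mt2 and Mt1 at 11 dpi, all 209 members had a positive log2 fold change, with a median of 1.14 against -0.0019 over all genes tested. The same test called 0 members higher and 0 lower (background 0% in each direction), with adjusted p from 0.256 to 0.552. At an unadjusted p under 0.05 there were 120 members (57.4%, against 19.4% of all genes), but 19 without Mt3_1 (9.09%, against 5.58%), 42 without Mt3_2 (20.1%, against 7.72%), 50 without Mt1_2 (23.9%, against 7.58%) and 63 without Mt2_2 (30.1%, against 11.6%), and up to 183 without Mt2_1 (87.6%, against 35.6%). DESeq2 called 15 members higher (background 0.389% higher and 0.701% lower). Without the filter on low counts, 144 members were called higher (background 2.33% higher and 4.22% lower). With the replicate number as a block, 111 were called higher (background 2.91% higher and 6.91% lower), among them Msln, Wnt7b, Hmga2 and Phgdh, though no label says what libraries of the same number share. On CPM, 190 members had all 4 later libraries above both Mt3 libraries, against 37.2% of all genes, and 0 had them below (background 7.25%). The median was similar in every group of members, from 1.05 for the metabolic enzymes to 1.36 for the homeobox genes outside the HOX clusters. Scaled to the summed counts of the members themselves, which centers the members near 0 by construction, the median was 0.02 here and 0.00 from Lt to Mt, with 0 members called in either direction (background 0%). At an unadjusted p under 0.05 there were then 0 and 4 members, against 37.3% and 46.5% of all genes, a gap that this scaling sets as well, since it moves the median of all genes to -1.03 and -1.06.

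Vcan (ENSMUSG00000021614, GRCm38 chr13:89655312-89742509, minus strand), which encodes the matrix proteoglycan versican, was the highest member. It had 0 and 2 counts in con, and 77.5 and 218 CPM for Lt, 159 and 196 CPM for Mt3, 279 and 694 CPM for Mt2, and 342 and 719 CPM for Mt1. Ht_1, Ht_2 and Ht_3 gave 920, 912 and 1111 CPM. Every Ht library lay above every Mt library, and the Lt and Mt3 values overlapped. Its log2 fold change was 0.95 (SE 0.41) from Lt to Mt and 0.99 (SE 0.43) from Mt3 to Mt2 and Mt1, with adjusted p of 0.362 and 0.256 by edgeR's quasi-likelihood test. The former was 0.49 without Lt_1 and 1.67 without Lt_2.

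Among the metabolic enzymes, Phgdh (ENSMUSG00000053398, chr3:98313170-98339990, minus strand), the first enzyme of serine synthesis, led. It measured 15.9 and 67.3 CPM in Lt, 36.4 and 52.4 CPM in Mt3, 74.2 and 208 CPM in Mt2, 100.4 and 209 CPM in Mt1, and 308 and 323 CPM in Ht_1 and Ht_2. Lt_2 was above both Mt3 libraries, so the Lt and Mt ranges overlapped. On a scale per gene length (FPKM, computed here as CPM per kilobase of the deposited length), the level of Phgdh was 127 in Ht, above the 63.3 of the much longer Vcan. The log2 fold change of Phgdh from Mt3 to Mt2 and Mt1 was 1.20 (SE 0.54). Ptges, which makes prostaglandin E2, stood at 116 and 111 CPM in Ht_1 and Ht_2, and Mgat3, which adds the bisecting sugar of N-glycans, at 85.8 and 77.7 CPM.

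Of the surface and secreted signaling proteins, Msln (ENSMUSG00000063011, chr17:25748614-25754327, minus strand) was highest. It encodes mesothelin, a membrane-anchored protein of mesothelial cells that many carcinomas also carry. Its values were 11.1 and 24.5 CPM in Lt, 17.8 and 21.0 CPM in Mt3, 40.2 and 132 CPM in Mt2, 67.0 and 119 CPM in Mt1, and 206 and 184 CPM in Ht_1 and Ht_2. All 4 later libraries exceeded both Mt3 libraries, and the log2 fold change was 1.67 (SE 0.40), adjusted p 0.256 by edgeR's quasi-likelihood test, while DESeq2 called Msln higher. The other mesothelial markers did not reach such levels, Upk3b at 1.04 to 2.43 CPM and Wt1 at 1.14 to 3.67 CPM in Ht. Igfbp6, a binding protein of insulin-like growth factors, stood at 179 and 139 CPM in Ht_1 and Ht_2, and Cd248, a stromal surface protein, at 78.7 and 68.2 CPM.

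The WNT and hedgehog members were led by the ligand Wnt7b (ENSMUSG00000022382, chr15:85535437-85582473, minus strand). It measured 9.90 and 19.8 CPM in Lt, 13.5 and 17.4 CPM in Mt3, 25.4 and 73.3 CPM in Mt2, 59.4 and 81.1 CPM in Mt1, and 111 and 116 CPM in Ht_1 and Ht_2. The later Mt libraries did not overlap Mt3, with a log2 fold change of 1.41 (SE 0.33) and an adjusted p of 0.256 by edgeR's quasi-likelihood test, while DESeq2 called Wnt7b higher. The secreted WNT modulator Dkk2 stood at 110.1 and 87.9 CPM and the receptor Fzd2 at 97.6 and 98.6 CPM in Ht_1 and Ht_2. The hedgehog factors Gli3 and Gli1 and the ligands Wnt10a and Wnt10b, named for their roles, are members too. All 13 WNT and hedgehog members had every later Mt library above both Mt3 libraries, as had 90.9% of the members and 37.2% of all genes tested.

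Among the adhesion and guidance genes, Slit2, a secreted ligand of Robo receptors, measured 9.90 and 31.5 CPM in Lt and 159 and 187 CPM in Ht_1 and Ht_2. The protocadherin Pcdh18 gave 124 and 128 CPM and the Slit and Unc5 partner Flrt2 gave 96.8 and 106 CPM in the same Ht libraries. Genes usually described in neurons or endocrine cells were also present at such levels. The sorting receptor Sorcs2 stood at 136 and 130 CPM in Ht_1 and Ht_2, the vesicle-scission protein Dnm1 at 98.5 and 110.3 CPM and the secretory granule protein Ptprn at 88.0 and 93.4 CPM. The neuronal tubulin Tubb3, a member that belongs to the Schwann and neural list, was lower at 17.2 and 16.8 CPM, and the whole list of 6 genes summed to only 16.9 to 18.6 CPM in Ht.

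The transcription regulators outside the homeobox families were led by Hmga2 (ENSMUSG00000056758, chr10:120361275-120476469, minus strand), a chromatin protein of embryonic and tumor cells. Its values were 8.47 and 23.5 CPM in Lt, 16.4 and 23.0 CPM in Mt3, 32.9 and 101.4 CPM in Mt2, 50.5 and 89.6 CPM in Mt1, and 105 and 119 CPM in Ht_1 and Ht_2. The later Mt libraries were all above Mt3, with a log2 fold change of 1.27 (SE 0.43) that did not pass the test (adjusted p 0.256, edgeR). The zinc-finger factor Osr2 stood at 105 and 90.8 CPM in Ht_1 and Ht_2, with 0 counts in con. Of the homeobox genes outside the HOX clusters, the limb regulators Shox2, Pitx1 and Prrx2 gave 38.2 and 37.2 CPM, 35.1 and 34.3 CPM, and 27.2 and 27.5 CPM, all with 0 counts in con.

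**Figure D3:**
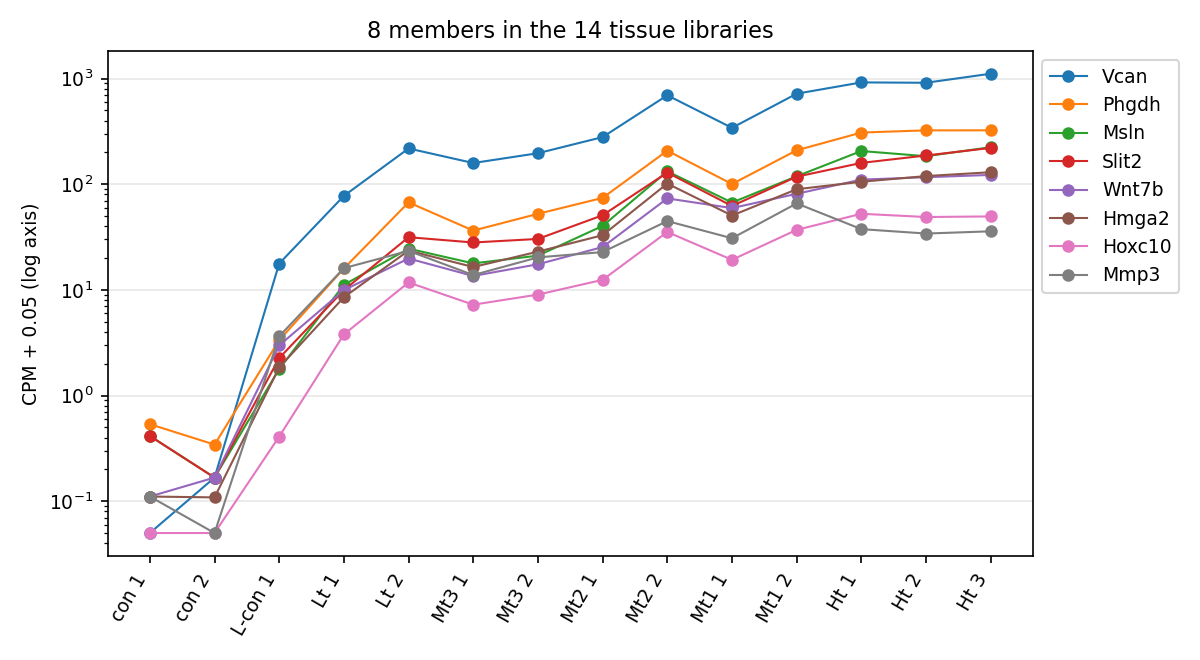
CPM plus 0.05 (log axis) of 8 tumor-high genes in the 14 tissue libraries, with lines that only join the points of a gene. 7 of the genes are highest in an Ht library, whereas Mmp3 peaks in Mt1_2 at 65.8 CPM and stands at 34.1 to 37.5 CPM in Ht.

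The 10 HOX members came from 3 of the 4 clusters. HOXC (chr15:102921103-103036852) gave 5 members and a summed Ht level of 148 CPM over its 9 genes, HOXA (chr6:52155590-52260880) gave 4 members and 107 CPM over 11 genes, and HOXD (chr2:74668310-74765142) gave Hoxd8 alone, which held 28.8 of the 29.8 CPM of its cluster. HOXB (chr11:96194316-96368256) gave no member, and its 10 genes summed to 3.88 CPM in Ht. In FPKM, a level per gene length, Hoxc10 was highest with 26.5, followed by Hoxc6 with 12.2, Hoxa10 with 11.2 and Hoxd8 with 10.5. Hoxc13 (8.03 CPM) and Hoxc5 (6.19 CPM), both with 0 counts in con, stayed out for their Ht level, and 10 of the 30 HOX entries that are no members had at most 3 counts in every Ht library. Hoxb4 had 10.1 CPM as the mean of the selected cells and 2.09 CPM in Ht. These 3 genes were named from their values.

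Hoxc10 (ENSMUSG00000022484, chr15:102966796-102971893, plus strand) had 0 counts in con, 6 counts in L-con, and 3.74 and 11.7 CPM in Lt. It measured 7.19 and 8.97 CPM in Mt3, 12.4 and 35.3 CPM in Mt2, 19.2 and 37.0 CPM in Mt1, and 52.5 and 48.9 CPM in Ht_1 and Ht_2. Lt_2 exceeded both Mt3 libraries, and Ht exceeded all the others. From Mt3 to Mt2 and Mt1 its log2 fold change was 1.15 (SE 0.44, adjusted p 0.256 by edgeR's quasi-likelihood test). Of the HOX members, 7 share bases with another gene span of the deposited annotation, so reads of overlapping transcripts may be split between them. Among all members this held for 108.

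**Figure D4:**
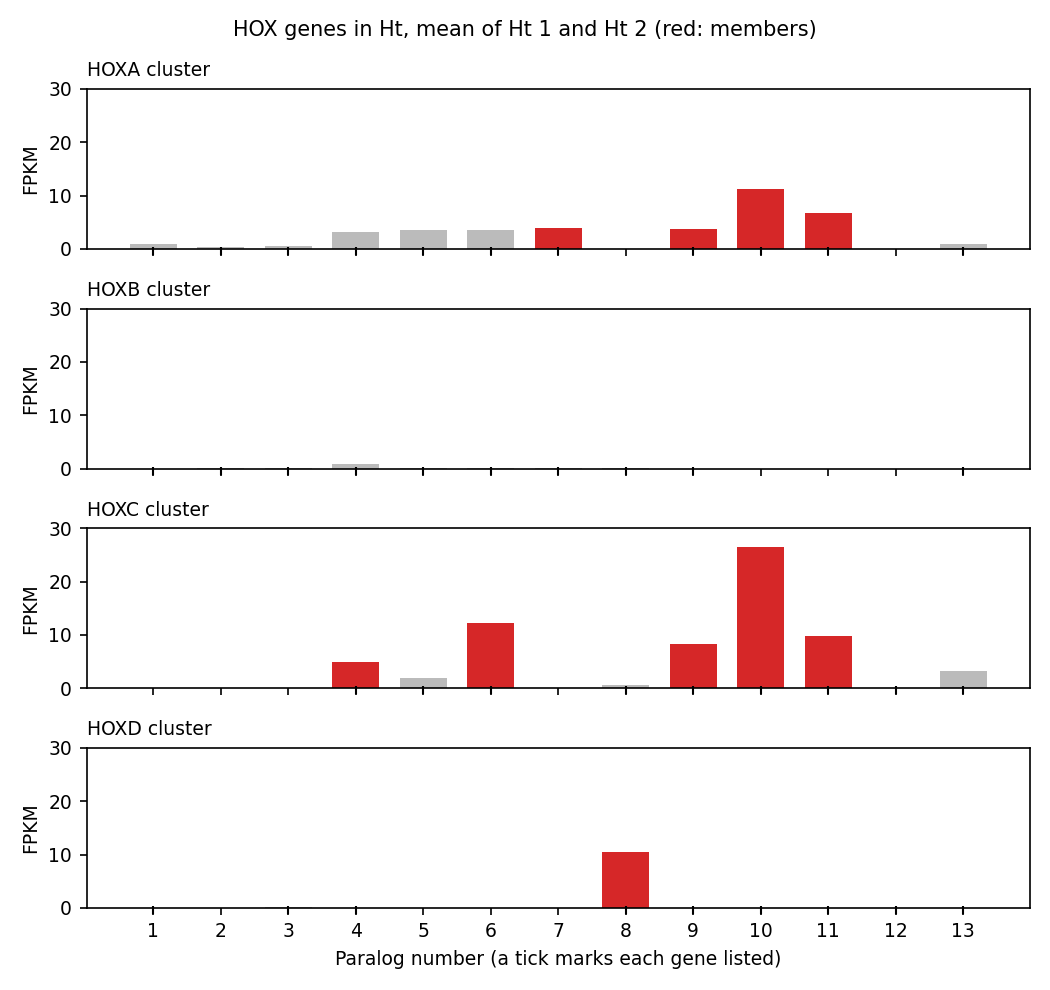
FPKM of the HOX genes in Ht (mean of Ht_1 and Ht_2), by cluster and paralog number, with members in red and other genes in gray. The tallest bar is Hoxc10 at 26.5 FPKM, HOXB stays under 0.815 FPKM, and in HOXD the single bar is Hoxd8.

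There were 19 pairs of neighboring members within 100000 bases of each other, involving 31 genes, of which 7 pairs were HOX neighbors. How often other genes of this abundance lie so close was not tested. The others included Foxc2 and Foxl1 on chromosome 8, and Prrx2 and Ptges on chromosome 2, 8219 bases apart. Members were found on 19 chromosomes, most on chromosome 6 with 20 (4.12% of its protein-coding genes of at least 10 CPM in Ht) and fewest on chromosome 16 with 1 (0.323%).

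Over the Lt and Mt libraries, the members that departed most from the median member were mostly matrix or secreted genes. Around the median member, the SD of a member over the 8 Lt and Mt libraries, on the log2 scale after adding 0.5 CPM, had a median of 0.22 and ran from 0.09 for the AP-1 subunit Fosl1 to 0.88 for the cartilage protein Cilp. The HOX genes had the lowest group median at 0.17 and the matrix and secreted proteins the highest at 0.29. Of the 5 members over 0.5, Cilp, Fbn2, Lgi2 and Aoc1 are in the latter group, and Lrrn4cl in none. Cilp had 8.86 and 4.57 CPM in Lt and 3.56 to 12.1 CPM in Mt, and was the single member with a negative log2 fold change from Lt to Mt (-0.37, unadjusted p 0.308 by edgeR's quasi-likelihood test). These 5 were named from their values.

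**Figure D5:**
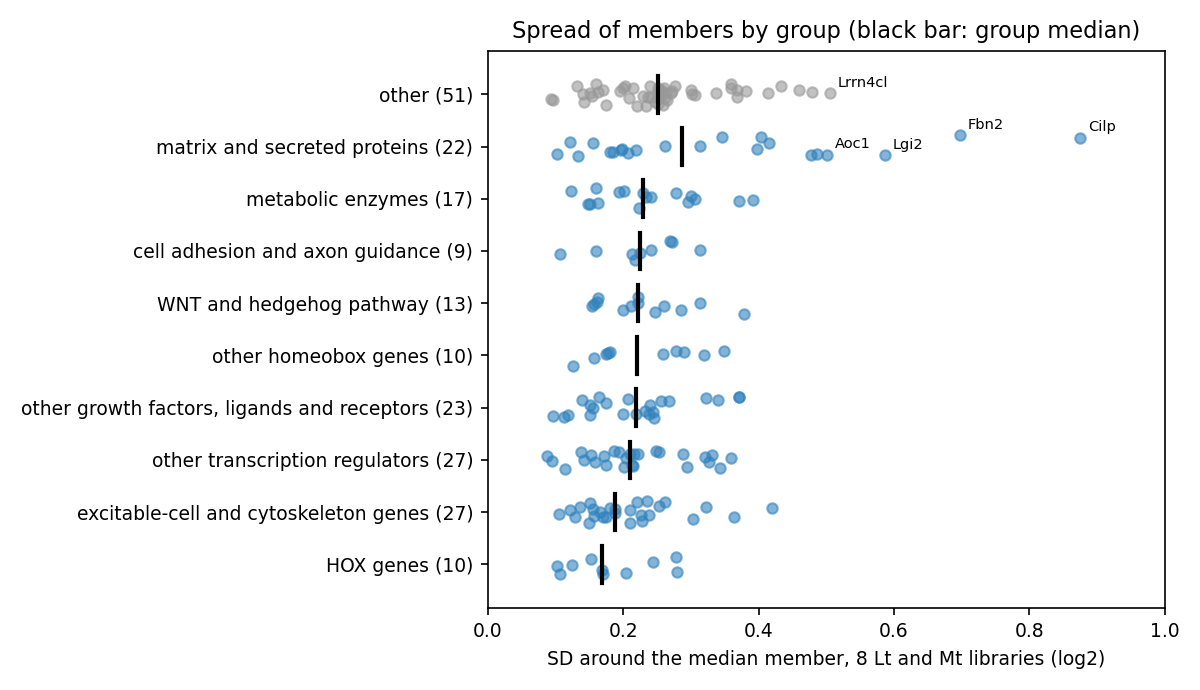
SD of each tumor-high gene around the median member over the 8 Lt and Mt libraries (log2 scale), by group, with the group size in parentheses and the median as a black bar. The HOX genes have the lowest median, 0.17, and Cilp and Fbn2 lie far to the right at 0.88 and 0.70.

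For 7 members an Mt library exceeded every Ht library, a count that the Ht limit keeps low (background 23.2% of the protein-coding genes of at least 10 CPM in Ht). They were the matrix or secreted genes Fbn2, Lgi2, Lox, Mmp3 and Wisp2, each highest in Mt1_2, and Ankrd1 and Fgf10, highest in Mt2_2, all named from these values. Lox, which cross-links collagen and elastin, had 60.3 CPM in Mt1_2 and 20.1 to 29.9 CPM in Ht. Fbn2, a microfibril protein, had 31.0 CPM in Mt1_2 against 5.49 CPM in Mt1_1, and 10.3, 11.9 and 19.4 CPM in Ht. Mmp3 (ENSMUSG00000043613, chr9:7445822-7455975, plus strand), the matrix protease stromelysin, had 16.0 and 23.4 CPM in Lt, 13.8 and 20.3 CPM in Mt3, 22.7 and 44.7 CPM in Mt2, and 30.8 and 65.8 CPM in Mt1. Its Lt and Mt ranges overlapped, with a log2 fold change of 0.26 (SE 0.24), adjusted p 0.572, which became 0.16 without Lt_1, 0.39 without Lt_2 and 0.13 without Mt1_2. The fibroblast list summed to 9942 CPM in Mt1_2, within the 9715 to 12648 CPM of Ht. Its genes were mixed, some above every Ht library in Mt1_2, such as Col1a2, and some below, such as Col3a1. The pericyte and smooth muscle genes summed to 288 CPM in Mt1_2 and 265 CPM in Mt2_2, above the 205 to 229 CPM of Ht. Whether stroma bears on these values was not tested.

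Between Ht_1 and Ht_2, which the choice used, 204 of 209 members had a ratio between 0.67 and 1.5 (94.5% of the protein-coding genes of at least 10 CPM in Ht). The 5 farthest from 1 were Gzmc (2.84), Gm14137 (1.71), Crabp2 (1.68), Slc14a1 (0.650) and Gm6133 (0.491). Gzmc encodes granzyme C of cytotoxic lymphocytes and had 20.8, 7.34 and 8.12 CPM in Ht_1, Ht_2 and Ht_3. Ht_3, which the choice did not use, had a median ratio to the Ht mean of 1.11 (0.534 to 1.95), with 204 members at 10 CPM or more. For 175 members every Ht library exceeded all 6 Mt libraries, which the Ht limit favors (49.8% of the protein-coding genes of at least 10 CPM in Ht).

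Upstream sequences of 5 members show how unlike the starts of tumor-high genes can be. Of the 209 members, 132 had a promoter in the RefSeq table (GRCm38.p6). For each motif below, the highest member that holds it in the printed 100 bases is shown, and Mmp3 for its different course. The sequences are upstream of the RefSeq start, 5′ to 3′ on the gene's strand, with motifs of either strand in capitals. Vcan (chr13:89742513-89742612, minus strand) holds GGGCGG on the opposite strand, Phgdh (chr3:98339970-98340069, minus strand) CCAAT, Slit2 (chr5:47983055-47983154, plus strand) TATAAA and GGGCGG, Bcat1 (chr6:145076158-145076257, minus strand), a branched-chain amino acid aminotransferase, TGANTCA and CCAAT, and Mmp3 (chr9:7445722-7445821, plus strand) TGANTCA and TATAAA.
Vcan: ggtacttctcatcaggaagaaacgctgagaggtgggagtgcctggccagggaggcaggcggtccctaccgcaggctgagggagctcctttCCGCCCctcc
Phgdh: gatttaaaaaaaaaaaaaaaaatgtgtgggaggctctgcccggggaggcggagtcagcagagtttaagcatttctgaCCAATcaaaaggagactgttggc
Slit2: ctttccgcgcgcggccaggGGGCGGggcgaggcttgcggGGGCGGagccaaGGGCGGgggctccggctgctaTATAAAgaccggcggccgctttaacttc
Bcat1: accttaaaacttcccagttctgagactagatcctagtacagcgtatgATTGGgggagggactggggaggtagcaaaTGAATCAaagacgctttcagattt
Mmp3: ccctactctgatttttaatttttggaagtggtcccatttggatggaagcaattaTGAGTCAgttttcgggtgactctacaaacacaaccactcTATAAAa

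Searched on both strands, TATAAA was present in the 250 bases upstream of 13.6% of the 132 members, against 5.97% of 7471 other protein-coding genes of at least 10 CPM in Ht and 11.6% of all 15471 promoters. CCAAT was held by 38.6%, 36.6% and 36.1% of these sets and GGGCGG by 62.1%, 62.7% and 45.6%. The AP-1-like motif TGANTCA, with any base at N and so wider than the AP-1 site, was held by 5.30%, 4.002% and 6.01%. Over the same bases the ratio of observed to expected CpG had a median of 0.636 in members, 0.761 in the other Ht genes and 0.581 over all promoters. These shares are descriptions of letters and were not tested.

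In the tumor-free liver L-con the members summed to 3099 counts (exact 95% Poisson interval 2991 to 3210), 185 CPM against 32.5 and 27.3 CPM in con and 747 and 1995 CPM in Lt. Of the 209 members 178 had more than 3 counts, and 185 were higher than in both con libraries, which the limit in con favors (46.9% of the protein-coding genes of at least 10 CPM in Ht). The highest counts belonged to Vcan with 296 (exact 95% Poisson interval 263 to 332), Pcdh18 with 66 and Mmp3 with 60, against at most 2, 7 and 1 counts in con. The median member stood at 2.05% of its Ht level. Of the genes just named, Mmp3 stood at 10.0%, though some members with fewer counts, such as Cilp, had a higher share. With 1 library the difference from con has no replicate check.

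In the cells selected from Mt2 the median member stood at 5.94%, 7.20% and 8.09% of its Ht level in F4/80+ and at 6.36%, 4.42% and 2.70% in CD11b+. The matrix and secreted proteins had the lowest median share at 3.56%, and the members with the lowest single shares were Fbn2 (0.253%), Aoc1 (1.010%) and Wisp2 (1.05%). In any selected library these genes had at most 2, 6 and 10 counts, so their order is uncertain. The highest shares were those of Tnfrsf10b (12.1%), a receptor of the death ligand TRAIL, Cacnb3 (11.9%) and Dclk2 (11.6%). Vcan was the most abundant member there too, with 45.0, 71.8 and 90.9 CPM in F4/80+ and 102, 125 and 23.1 CPM in CD11b+. The F4/80+ and CD11b+ values of Vcan overlapped, with a log2 fold change of -0.30 (SE 0.49, adjusted p 0.787 by edgeR's quasi-likelihood test over 14263 genes). It was -0.71 without CD11b+_3 and 0.093 without CD11b+_2.

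Between the selected populations the tumor-high genes tended higher in F4/80+ without any call. The choice used the mean of these 6 libraries, not the difference between the populations, and a filter on low counts kept 194 members, and edgeR's quasi-likelihood test called 0 of them in either direction (background 0.00701% higher and 0.0701% lower), with adjusted p from 0.206 to 0.992. DESeq2 also called 0 (background 0.772% higher and 1.02% lower). It gave an unadjusted p under 0.05 to 33 of 205 members, against 1855 of 16832 genes. By edgeR 31 members had an unadjusted p under 0.05, 16.0% against 10.5% of all genes. There were 11 without F4/80+_2 (5.64%, against 5.78% of all genes), 11 without F4/80+_3 (5.64%, against 6.55%) and 12 without CD11b+_2 (6.12%, against 13.1%), and 53 without CD11b+_1 (27.3%, against 14.4%). The median log2 fold change of those kept was 0.54, against -0.0040 over all genes tested. On CPM, 51 of the 194 had all 3 F4/80+ libraries above all 3 CD11b+ libraries (26.3%, background 12.9%), and 2 had them below (background 9.79%), namely the adenylate kinase Ak1 and the F-box protein Fbxo2, named from their values.

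Of the 12 WNT and hedgehog members tested, 7 had the F4/80+ libraries above, against 26.3% of the members and 12.9% of all genes tested. This share, 58.3%, was the highest of the groups. It was 50% for the homeobox genes outside the HOX clusters and 44.4% for the other transcription regulators. The HOX genes had the lowest share, 10%. Dkk2 had 2.35, 4.81 and 5.06 CPM in F4/80+ and 2.27, 1.07 and 1.43 CPM in CD11b+, and Ptprn 6.49, 8.75 and 10.1 CPM against 5.76, 3.80 and 2.92 CPM. Their log2 fold changes were 1.26 (SE 0.41) and 0.94 (SE 0.27), with adjusted p of 0.377 and 0.305 by edgeR. Pcdh18 gave 4.58, 7.38 and 7.65 CPM against 4.49, 2.43 and 1.16 CPM, with a log2 fold change of 1.23 (SE 0.42). The lowest CD11b+ value of Pcdh18 was that of CD11b+_3, the library rich in neutrophil genes, and this library was the lowest of the 6 for 134 members (64.1%, against 56.9% of the protein-coding genes of at least 10 CPM in Ht). Without it the median log2 fold change of the members was 0.41. Of the marker lists, 4 were also higher in F4/80+ without overlap and 2 were lower. The fibroblast genes summed to 408 to 641 CPM against 191 to 406 CPM, the 13 endothelial genes to 256 to 410.3 CPM against 128 to 181 CPM, the hepatocyte genes to 224 to 393 CPM against 74.4 to 174 CPM, and the 6 stellate cell genes to 18.2 to 21.4 CPM against 6.39 to 16.8 CPM. The lower lists were the epithelial genes, with 3.58 to 5.004 CPM against 11.2 to 16.9 CPM, and the neutrophil genes, with 179 to 739 CPM against 1209 to 4493 CPM. Their part in the difference was not tested.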

How the data were processed

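The authors deposited raw counts of reads per gene, without normalization, for 14 tissue and 6 selected-cell libraries, 54532 genes with Ensembl identifiers, lengths and positions. The submitters' processing notes name GRCm38, CASAVA, HISAT2 2.0.5 and featureCounts 1.5.0-p3. The strand setting is not given in the sources used here. 0 columns of per-sample values were left unmapped. The members and lists were chosen with earlier results of these data known.

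CPM was computed from column totals. Counts were tested in R 4.3.3 with edgeR 4.0.16 (TMM, filterByExpr, quasi-likelihood F test, Benjamini-Hochberg adjustment over all genes tested), with Lt, Mt3, Mt2 and Mt1 in 1 fit of 8 libraries and the selected cells in another of 6. The Lt and Mt libraries played no part in the choice of members. Standard errors were derived from the F statistic. The tests were tried on simulated data with known changes. DESeq2 1.42.0, other scalings and filters, the replicate number as a block, all tissue libraries in 1 fit and leaving out each library were the alternatives. Genes named are the 10 highest in Ht, the 3 highest of each group, the members at the edges of the rule, the 3 highest in L-con, the 5 least alike in Ht_1 and Ht_2, the extremes of the selected-cell share and members of a marker list. Others are said to be named from their values. Spreadsheet-damaged gene names took the reference symbol of the same Ensembl identifier. Sequences are from RefSeq (GRCm38.p6). Some members that the rule for named genes would name are not reported here.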

Additional observations from a re-analysis of the deposited data

Results flagged for a closer look

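The level of the tumor-high genes in L-con, a library outside the 3 comparisons, was above that in the control livers. The members summed to 185 CPM there, against 32.5 and 27.3 CPM in con. The hepatocyte genes summed to 127974 CPM in L-con, against 134251 and 150806 CPM in con, the fibroblast genes to 488 CPM against 207 and 284 CPM, and the macrophage genes to 1073 CPM against 445 and 624 CPM. The cause was not tested.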

How the results depend on the processing

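The number of members called was 0 from Lt to Mt and from Mt3 to Mt2 and Mt1, and the alternatives that moved it were DESeq2 (3 and 15 members called higher, against 0.0401% and 0.389% of all genes) and no filter on low counts (75 and 144, against 1.01% and 2.33%). With the replicate number as a block (replicate block) it was 0 from Lt to Mt and 111 from Mt3 to Mt2 and Mt1 (2.91% of all genes higher). The numbers were not taken to pair the samples, because the labels do not say what they share and there are only 2 of them, although the differences of replicate 2 minus replicate 1 correlated between groups (r from 0.251 to 0.736 across 14035 genes, which are not independent). Leaving out each library gave 0 to 0 members called in all 3 comparisons, where a lone sample is assumed to vary like the other groups. The median log2 fold change then ran from 0.49 to 1.58 from Lt to Mt, from 0.86 to 1.34 from Mt3 to Mt2 and Mt1, and from 0.41 to 0.80 between F4/80+ and CD11b+. Scaled to the summed counts of the members it was 0.0038 and 0.021 in the tissue comparisons, by construction near 0, and under this scaling Mmp3 was at -0.81 from Lt to Mt and -0.33 from Mt3 to Mt2 and Mt1, and Vcan at -0.12 in the latter. Between F4/80+ and CD11b+, 0 members were called under every alternative, and Vcan ran from -0.71 to 0.093 when a library was left out (0.093 without CD11b+_2). With total-count scaling the median of all genes moved to 0.33 from Lt to Mt and 0.47 from Mt3 to Mt2 and Mt1, and that of the members to 1.25 and 1.67. The rule gave 161 members with TMM-scaled CPM and 212 with the mean of 3 Ht libraries.

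With 2 libraries a group, and gaps within Lt, Mt2 and Mt1 as wide as those between groups, a change common to the members cannot be told apart from unequal tumor content of the samples. The depth limits the members near 10 CPM in Ht most, since 10 counts corresponded to 0.550 CPM in Lt_1. Whole-tissue counts do not show which cells carry a transcript.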
